A study of Bos taurus with 4 samples.

Results

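The linker histone genes were described here by every array probe whose platform symbol was one of a set of older and current gene names. Of 43794 bovine probes, 7 carried such a symbol: 4 of H1FOO (now H1-8), 2 of HIST1H1C (now H1-2) and 1 of HIST1H1E. RefSeq pairs HIST1H1E with H1-12 in cattle (assembly ARS-UCD2.0), whereas the human gene of that older name is H1-4, so the target of this probe is less certain. H1-10 (H1FX) was not analysed here because no probe carried its names. The 2 probes of HIST1H1D (now H1-3), a linker histone outside the chosen names, are given for comparison.

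Linker histones bind the nucleosome where DNA enters and leaves it and help to compact chromatin. H1-8 is the oocyte form. In mouse oocytes and early embryos it takes the place of the somatic forms, and it is stored as maternal mRNA and protein. H1-2 is a somatic form from the replication-dependent histone gene cluster. The mRNAs of that cluster typically end in a stem-loop bound by the protein SLBP and lack a poly(A) tail in dividing cells, whereas H1-8 mRNA is of the polyadenylated kind. In that RefSeq annotation, H1-12, H1-3 and H1-2 lie on 1 chromosome, with 12 annotated genes between H1-12 and H1-2, and H1-8 lies on another.

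Immature oocytes at the germinal vesicle stage had been freed of cumulus cells from chilled slaughterhouse ovaries of Holstein cows, and their RNA was parted into 2 fractions. The A150 fraction, eluted from poly(A)-binding beads at 75 °C after a first elution at 42 °C, is described in the labels as RNA with tails of 150 nucleotides or more. The A- fraction is the RNA in the flow-through and washes, labelled as having tails of 50 nucleotides or fewer. From each of 4 pools of 200 oocytes, both fractions were hybridised on 1 two-colour array, with A150 labelled with Cy5 for arrays 1 and 2, and with Cy3 for arrays 3 and 4. The oocytes of a pool were not measured apart. All ratios are on the log2 scale, A150 over A-, and a positive ratio means a higher relative signal in A150. Since each array was centred, ratios are relative within an array and give no absolute amount, and a longer tail cannot be told apart from another difference in how a transcript was recovered or amplified.

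A spot was called above background when it exceeded the mean plus 2 SD of the negative-control spots in its channel. The share of all probes above this level ran from 9.96% to 60.6% in A150 and from 22% to 48.7% in A- over the arrays, with the lowest A150 share on array 2. A probe was kept when either fraction passed on 3 or more arrays, which left 19453 probes and 7795 genes. All 7 linker histone probes were kept, but both fractions were above background in 13 of their 28 pairs of spots, and on array 2 only 1 of the 7 probes was above background in A150. No member passed in both fractions on all 4 arrays. Of 10 oocyte marker genes, 7 were above background on all 4 arrays in at least 1 fraction, among them GDF9, BMP15 and ZP3. The oocyte transcription factor gene NOBOX was not kept. Of 17 cumulus and granulosa marker genes 6 were kept, and 6 were above background on no array, including FSHR, LHCGR and AMH. STAR was above background on all arrays, in A150 and in A-. The part of cumulus cell RNA in the linker histone values was not tested.

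H1-8 had higher signal ratios toward A150 and H1-2 toward A-. All 4 H1-8 probes had a positive normalised ratio on all 4 arrays, as did 12% of kept probes, with means from 0.54 to 2.17. On array 2, however, EMBV3_21113, EMBV3_01861 and EMBV3_21367 were above background in neither fraction. Their A150 spots there were dimmer than their A- spots, so those positive signs come from normalization of background-level signal. The brighter H1-2 probe had a negative ratio on all 4 arrays, as did 10.1% of kept probes, with a mean of -4.17. None of the 7 member probes passed limma at an adjusted p under 0.05. Over all kept probes that threshold called 0% as higher in A150 and 0.0617% as higher in A-. Before adjustment, a limma p under 0.05 was found for 3 member probes on the A150 side, against a background of 8.06%, and 1 on the A- side, against 5.45%. The 4 H1-8 probes share a target and are not independent of each other. EMBV3_21113, EMBV3_01861 and EMBV3_21367 passed the background level on 3 arrays in A150 but on 2, 2 and 1 in A-. They were therefore kept through the fraction in which they are higher, so their sign and unadjusted p add no separate support. H1-2 probe EMBV3_13018 passed on 2 arrays in A150 and on 3 in A-. It too was kept through the fraction in which it is higher on average, so its sign adds no separate support.

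**Figure D1:**
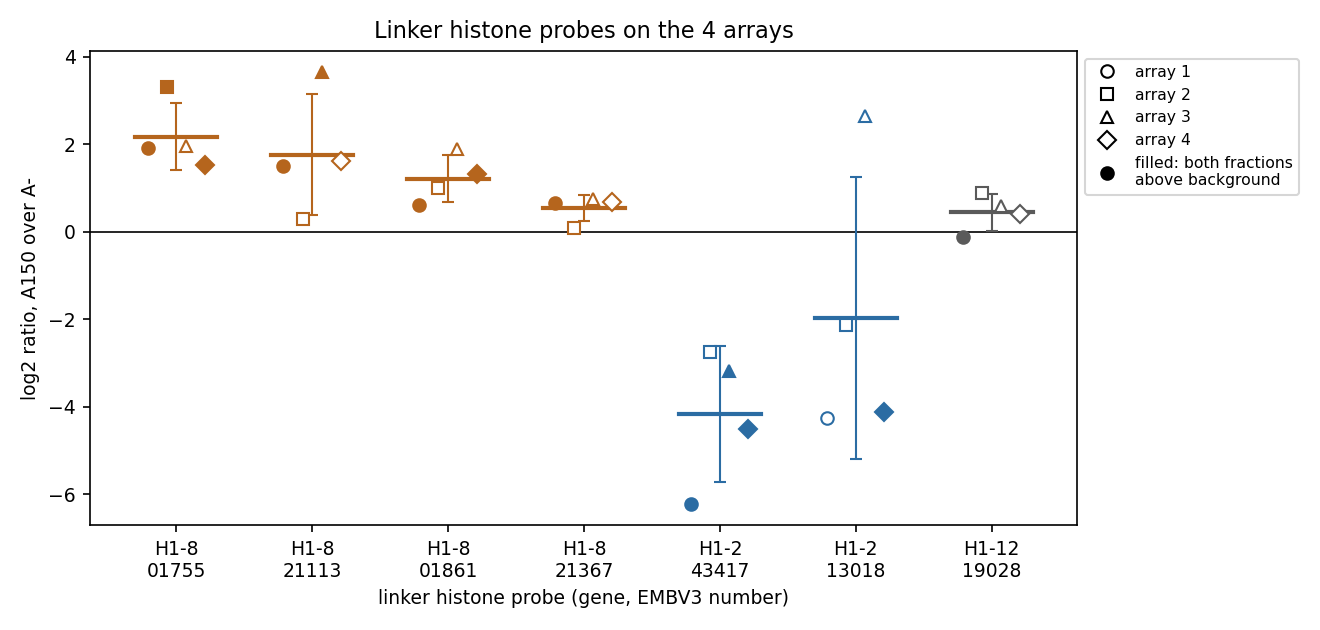
Log2 ratio of A150 over A- (vertical axis) of each linker histone probe (horizontal axis). Marker shapes are the 4 arrays, filled where both fractions were above background, and bars and whiskers are the mean and SD. The H1-8 markers all lie above 0, the markers of H1-2 probe EMBV3_43417 all lie below 0, and EMBV3_13018 has 1 marker, array 3, at 2.65.

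The brightest H1-8 probe, EMBV3_01755, had A150 intensities of 2031, 20455, 4535 and 4079 on arrays 1 to 4, against A- intensities of 1241, 3283, 1532 and 1271. Every A150 spot exceeded its A- spot, and the A150 spot of array 2 was the brightest. The normalised ratios were 1.91, 3.30, 1.95 and 1.53, with a mean of 2.17 ± 0.77 (SD, n = 4), or 4.50-fold higher in A150 (limma adjusted p = 0.102). This probe was above background on all arrays in A150 and on 3 in A-, array 3 being the exception. Its mean lay above those of most kept probes: 1.46% of them were as high or higher. The authors' deposited table gave ratios of 1.17, 2.94, 1.63 and 1.22 for it.

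Probe EMBV3_21113 of H1-8 was the most variable across arrays. Its A150 intensities were 11965, 1605, 36039 and 1296, against 4042, 2415, 2765 and 537 in A-. On array 2 neither spot was above background, and on array 3 the A150 spot was by far the brightest. The ratios were 1.51, 0.28, 3.64 and 1.61 (mean 1.76 ± 1.39, SD, n = 4, limma adjusted p = 0.283), and the mean was 1.13 without array 3. The 2 brighter H1-8 probes therefore had their highest ratio and A150 signal on different arrays.

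Probe EMBV3_01861 of H1-8 had ratios from 0.61 on array 1 to 1.90 on array 3 (mean 1.21 ± 0.54, SD, n = 4, limma adjusted p = 0.181). It was above background on 3 arrays in A150 and on 2 in A-, so the size of the ratio is uncertain. Its A150 intensities were 1199, 2325, 4517 and 2238, against 1521, 2674, 1558 and 843 in A-. The A150 spot was the brighter of the pair on arrays 3 and 4 only, where A150 was in Cy3. The ratios on arrays 1 and 2 are positive after normalization. Probe EMBV3_21367, the dimmest of the 4, had ratios of 0.65, 0.087, 0.74 and 0.67 (mean 0.54 ± 0.30, SD, n = 4, limma adjusted p = 0.453). Its A150 intensities were 504, 1778, 1400 and 903, against 1341, 2740, 1385 and 617 in A-. The A150 spot was the brighter on arrays 3 and 4 only, so the ratios on arrays 1 and 2 are positive only after normalization. The mean ratio of EMBV3_21367 was 0.056 without normalization within arrays. In A- it passed the background level on array 1 alone, so on the other arrays its ratio is set against a signal near background.

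**Figure D2:**
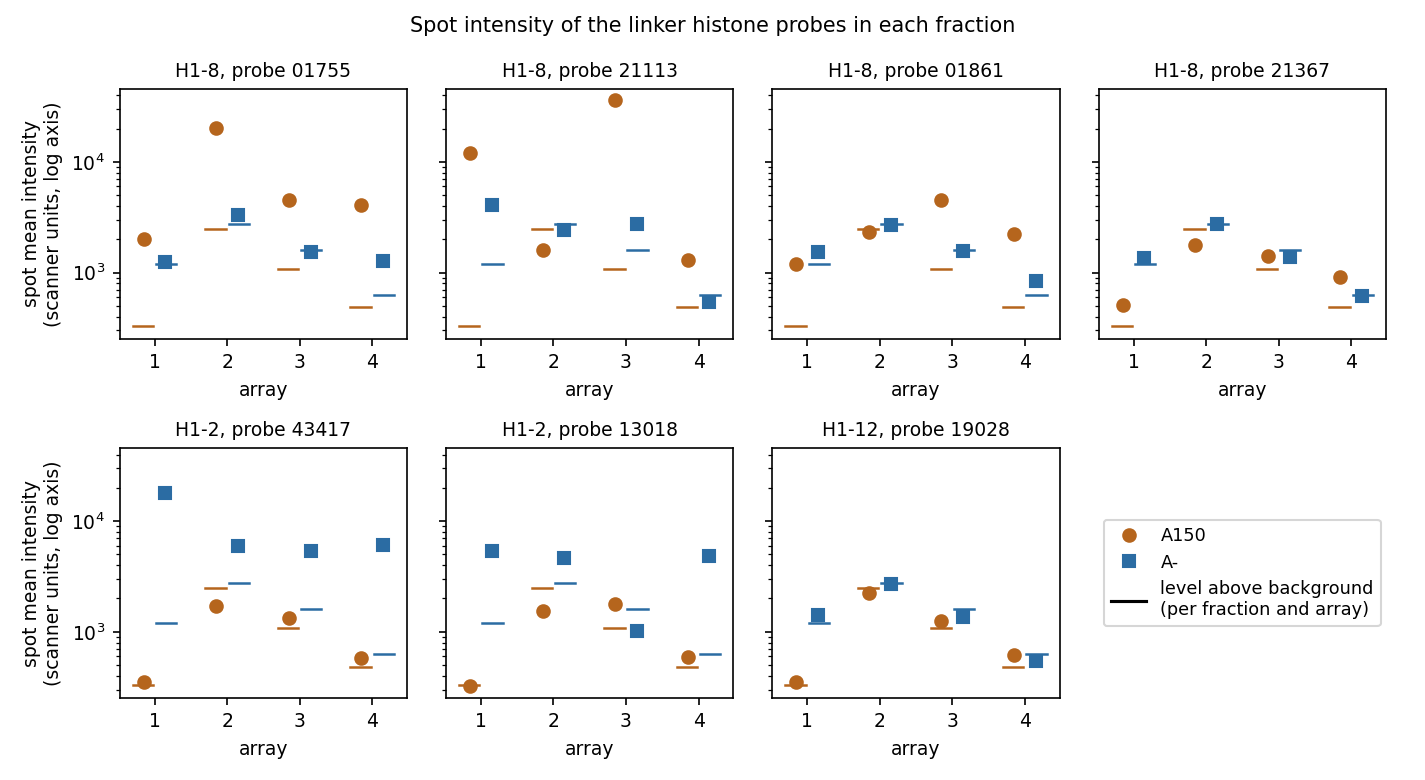
Spot mean intensity (vertical axis, scanner units, log scale) of each linker histone probe on arrays 1 to 4, with A150 as circles to the left of A- as squares. Short lines are the level above background for each fraction and array. A- squares of H1-2 probe EMBV3_43417 stand above their level on all arrays, least so on array 2, while its A150 circles stay near theirs. The A150 circles of H1-8 probe EMBV3_01755 lie above their level on all arrays.

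H1-2 stood on the opposite side. Its brighter probe, EMBV3_43417, had A150 intensities of 354, 1700, 1321 and 585, against A- intensities of 17881, 5928, 5366 and 6115. The A- spots were above background on all 4 arrays, and the A150 spots stayed near the background level and passed it on arrays 1, 3 and 4. The ratios were -6.22, -2.76, -3.18 and -4.51 (mean -4.17 ± 1.56, SD, n = 4), which is 18.0-fold toward A- (adjusted p = 0.0881 by limma). Because the A150 spots were so dim, the size of this ratio is uncertain. Only 0.195% of kept probes, 38 in all, had a mean as low or lower. In the authors' deposited table its ratios were -5.68, -1.97, -2.29 and -2.98.

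The other H1-2 probe, EMBV3_13018, had A150 intensities of 320, 1546, 1794 and 586, against 5405, 4685, 1007 and 4812 in A-. It thus followed the first probe on arrays 1, 2 and 4, with ratios of -4.27, -2.14 and -4.13. On array 3 the ratio was 2.65, with A150 above background and A- below it. On that same array the brighter probe had an A- signal well above background. The mean of EMBV3_13018 was -1.98 ± 3.23 (SD, n = 4, limma adjusted p = 0.603). It was -3.52 without array 3, -1.21 without array 1 and -1.26 without array 4.

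The HIST1H1E probe, EMBV3_19028, had A150 intensities of 349, 2244, 1260 and 620, against 1430, 2680, 1347 and 545 in A-. Most of these spots lay close to the background level, and it was passed in A- on array 1 only. The ratios of -0.11, 0.88, 0.58 and 0.40 gave a mean of 0.44 ± 0.42 (SD, n = 4, limma adjusted p = 0.594), which was -0.093 without normalization within arrays, so no direction is settled. The 2 HIST1H1D probes were not kept. EMBV3_07355 had ratios of -0.31, 0.56, -0.73 and 0.21, and EMBV3_14506, above background on no array in either fraction, had 0.37, -0.17, 0.40 and 0.94. Of the 8 spot pairs of H1-3, A150 passed the background level in 1 and A- in 1, so no direction was detectable at this signal.

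**Figure D3:**
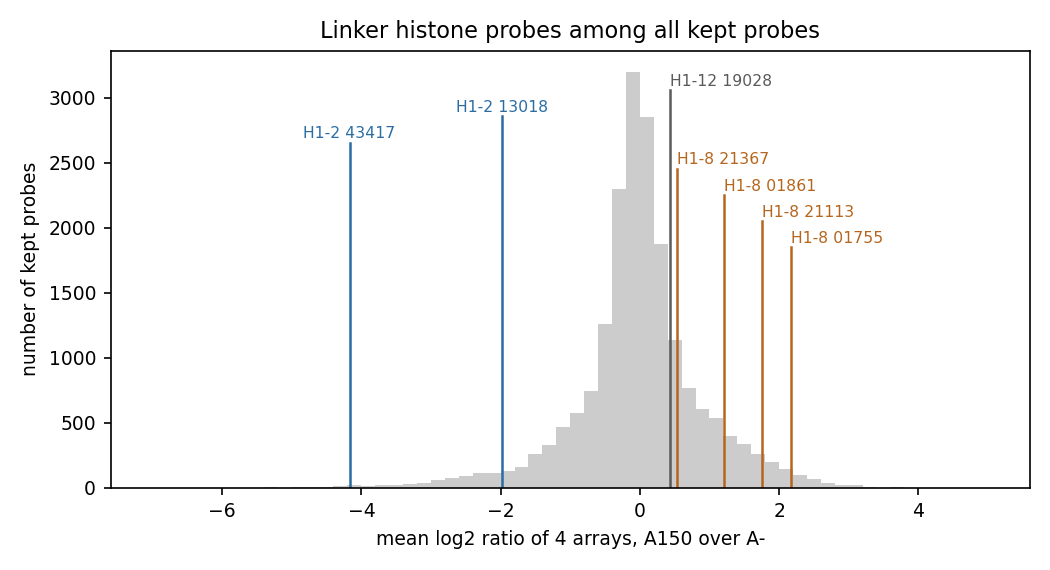
Histogram of the mean log2 ratio of A150 over A- (horizontal axis) of the 19453 kept probes (vertical axis, number of probes), with vertical lines at the 7 linker histone probes. The 4 H1-8 lines lie between 0.54 and 2.17, to the right of the peak, and the H1-2 lines at -1.98 and -4.17 to its left.

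The ratio of the brightest H1-8 probe was then set against each of the other 6 member probes within arrays. With 4 arrays, the exact two-sided sign-flip permutation test cannot give a p below 0.125, so no difference can pass. Against H1-2 probe EMBV3_43417 the differences were 8.13, 6.05, 5.13 and 6.04 (mean 6.34 ± 1.27, SD, n = 4, exact permutation p = 0.125, 0.188 adjusted over the 6 differences). Every array had this sign. Against H1-2 probe EMBV3_13018 the mean difference was 4.15 ± 3.25, and it was negative on array 3. Against HIST1H1E it was 1.73 ± 0.59, with 1.13 to 2.42 on the arrays. Against the other H1-8 probes the mean differences were 0.41 ± 1.95 for EMBV3_21113, 0.96 ± 1.05 for EMBV3_01861 and 1.64 ± 1.06 for EMBV3_21367.

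Averaging the probes of each gene gave H1-8 ratios of 1.17, 1.17, 2.06 and 1.28 on arrays 1 to 4, a mean of 1.42 ± 0.43 (SD, n = 4). For H1-2 they were -5.25, -2.45, -0.27 and -4.32, a mean of -3.07 ± 2.20 (SD, n = 4). Of the 16 H1-8 spots per fraction 13 were above background in A150 and 8 in A-, and of the 8 H1-2 spots per fraction 5 were in A150 and 7 in A-, so the sizes of both means are uncertain. The H1-8 mean was above the H1-2 mean on every array. The differences of 6.42, 3.62, 2.32 and 5.61 averaged 4.49 ± 1.86 (SD, n = 4, exact permutation p = 0.125, the smallest the design allows). Each mean includes probes kept through the fraction in which they are higher: EMBV3_21113, EMBV3_01861 and EMBV3_21367 for H1-8, EMBV3_13018 for H1-2. The sign and p of these differences therefore add no separate support. By dye orientation, the brightest H1-8 probe averaged 2.60 with A150 in Cy5 and 1.74 with A150 in Cy3 (n = 2 arrays each). The other H1-8 probes were lower with A150 in Cy5: EMBV3_21113 averaged 0.89 there and 2.63 in Cy3, EMBV3_01861 averaged 0.81 and 1.61, and EMBV3_21367 averaged 0.37 and 0.70. For H1-2, EMBV3_43417 averaged -4.49 with A150 in Cy5 and -3.85 in Cy3, and EMBV3_13018 averaged -3.21 and -0.74. No mean turned sign between orientations, but the Cy3 mean of EMBV3_13018 averages 2.65 on array 3 and -4.13 on array 4. With dye orientation as a term in limma, no member probe passed (lowest adjusted p = 0.144). The part of the dye in these sizes was not tested apart from the arrays.

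The genes whose ratios on the 4 arrays were closest to those of the brightest H1-8 probe, by root mean square difference over 7275 genes, were SPCS1, TENT2, POLR1D, AHSA1 and MRPL37. Their distances ran from 0.35 to 0.46, against a median of 2.41 over all compared genes. SPCS1, a subunit of the signal peptidase, had ratios of 1.34, 3.41, 2.26 and 1.74. TENT2, a cytoplasmic poly(A) polymerase, had 1.59, 3.06, 1.55 and 0.90. POLR1D is a subunit of RNA polymerases I and III, AHSA1 a co-chaperone of HSP90 and MRPL37 a mitochondrial ribosomal protein, and their means were 2.29, 2.37 and 2.17. The small distances follow from this choice. In A-, SPCS1 was above background on 1 array and POLR1D on 2, so the sizes of their ratios are uncertain.

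Genes that act with linker histones were compared at the level of genes, with the brightest kept probe of each. Of all 7795 genes, 50.7% had a positive mean ratio, the median was 0.01, and limma called 0% in either direction (without adjustment, 9.75% had a p under 0.05 on the A150 side and 4.18% on the A- side). Among 12 histone chaperone and import genes 5 were kept, 4 of them positive, with a median of 0.47. The nucleosome assembly gene NAP1L1 stood at 1.37 ± 0.85 (SD, n = 4) and was positive on all arrays, and PTMA, whose acidic protein binds linker histones, at 0.79 ± 0.86. NASP, a chaperone that binds linker histones and histones H3 and H4, stood at -1.23 ± 1.36 and was positive on array 2 only. None of the 5 passed, and 1, NAP1L1, had an unadjusted limma p under 0.05.

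Among 12 genes for nucleosome-binding proteins whose sites overlap those of linker histones, 6 were kept, 4 of them positive, with a median of 0.17. HMGN4, a nucleosome-binding high mobility group gene, had ratios of 1.89, 3.19, 2.80 and 1.07 (mean 2.24 ± 0.95, SD, n = 4, limma adjusted p = 0.126). Its probe passed the background level on 4 arrays in A150 but on 2 in A-. HMGN4 was therefore kept through the fraction in which it is higher, and the size of its ratio is uncertain. PARP1, the main poly(ADP-ribose) polymerase, had 0.94, 1.84, 1.31 and 1.06 (mean 1.29 ± 0.40, SD, n = 4, limma adjusted p = 0.146). Both were positive on all arrays, whereas HMGN2 (-0.24 ± 0.92) and HMGB3 (-0.70 ± 2.42) took either sign. Of 8 genes for heterochromatin proteins and readers of linker histones 4 were kept, 1 of them positive, with a median of -0.69. CBX5, which encodes HP1 alpha, stood at -2.37 ± 2.22 by the probe used and at 0.69 by another probe, so it has no settled direction. SUV39H2, a histone H3 lysine 9 methyltransferase, stood at -1.31 ± 1.47, and its other probe at -0.96. CBX3, which encodes HP1 gamma, stood at 0.02 ± 0.48.

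**Figure D4:**
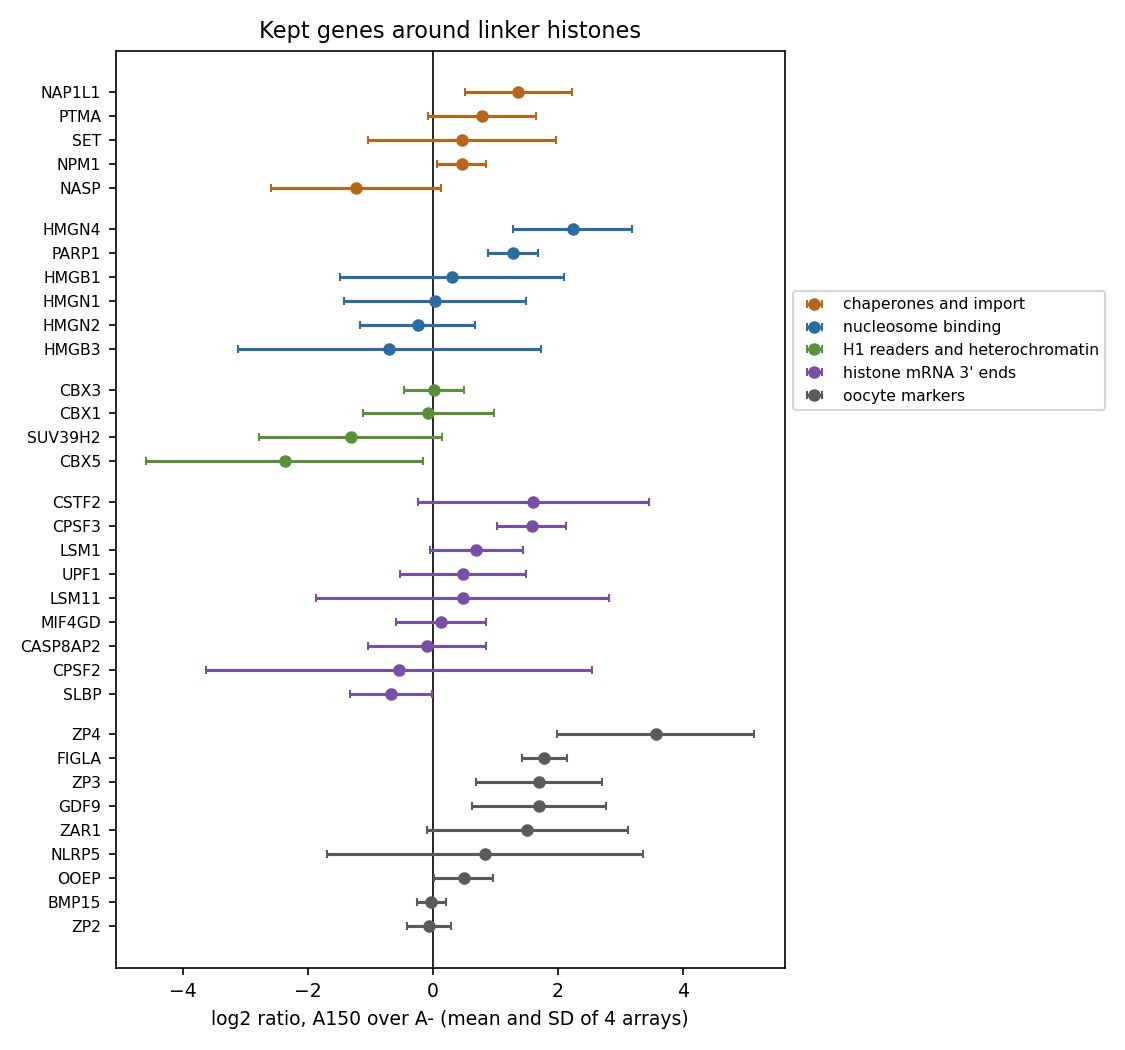
Mean log2 ratio of A150 over A- with SD over 4 arrays (horizontal axis) of the kept genes of 5 lists (rows, 1 gene each, coloured by list). Genes above 0 by more than their SD include HMGN4, PARP1, NAP1L1, NPM1 and CPSF3, and the oocyte markers FIGLA, ZP4, ZP3, GDF9 and OOEP. SLBP lies at -0.67. HMGN4 and OOEP were kept through A150, the fraction in which they are higher.

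Machinery for the 3′ ends of histone mRNAs was listed with 17 genes, of which 9 were kept and 6 had a positive mean, with a median of 0.48. SLBP, which encodes the stem-loop binding protein, had ratios of -1.61, -0.12, -0.62 and -0.32 (mean -0.67 ± 0.66, SD, n = 4, limma adjusted p = 0.481). Each fraction was above background on all arrays, and the ratio was negative on each. CPSF3, the endonuclease that cuts both histone and polyadenylated precursors, stood at 1.58 ± 0.55 (SD, n = 4, limma adjusted p = 0.130), with 0.94 to 2.28 on the arrays. CSTF2, a cleavage stimulation factor subunit, stood at 1.61 ± 1.85 and was above background in A- on 1 of the 4 arrays. CSTF2, LSM1 and UPF1 were kept through A150, the fraction in which they are higher on average. The count of positive genes may therefore partly follow from the filter. CPSF2 had ratios from -4.29 to 3.10.

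Replication-dependent core histones, a list added after their values were known, had members on both sides. Of 6 such genes with a probe 4 were kept, 1 of them positive. HIST1H2BN, a histone H2B gene, stood at 2.44 ± 0.29 (SD, n = 4, limma adjusted p = 0.0885), and H2AC20 (HIST2H2AC), a histone H2A gene, at -2.39 ± 0.68 (SD, n = 4, limma adjusted p = 0.105). Oocyte markers, which like H1-8 are transcribed in the oocyte, had 7 positive genes among 9 kept, with a median of 1.51. ZAR1, OOEP and NLRP5 were kept through A150, the fraction in which they are higher on average. This count and median may therefore partly follow from the filter. FIGLA stood at 1.79 ± 0.36 and ZP4, a zona pellucida gene, at 3.57 ± 1.58, whereas BMP15 stood at -0.02 ± 0.24. ZP2 stood at -0.06 ± 0.35 by the probe used and at 1.74 by another. The markers of cumulus and granulosa cells had 3 positive and 3 negative genes, with a median of -0.0032, and STAR, a steroidogenic transport gene, stood at 0.40 ± 1.07 by the probe used and at -0.063 ± 2.12 and 1.83 ± 0.94 by its other probes, PTX3 at 0.11 ± 0.30, INHBA at -0.23 ± 0.91 and GREM1 at -0.13 ± 0.25.

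Under the processing settings tried, the ratios of the 4 H1-8 probes were all positive and those of both H1-2 probes all negative, as mean values. Some of these settings, named below, cannot change a mean ratio. The brightest H1-8 probe ranged from 1.67 to 2.80, the dimmest, EMBV3_21367, from 0.056 to 0.68, and H1-2 probe EMBV3_43417 from -4.64 to -3.19, and EMBV3_13018 from -3.52 to -1.21.

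**Figure D5:**
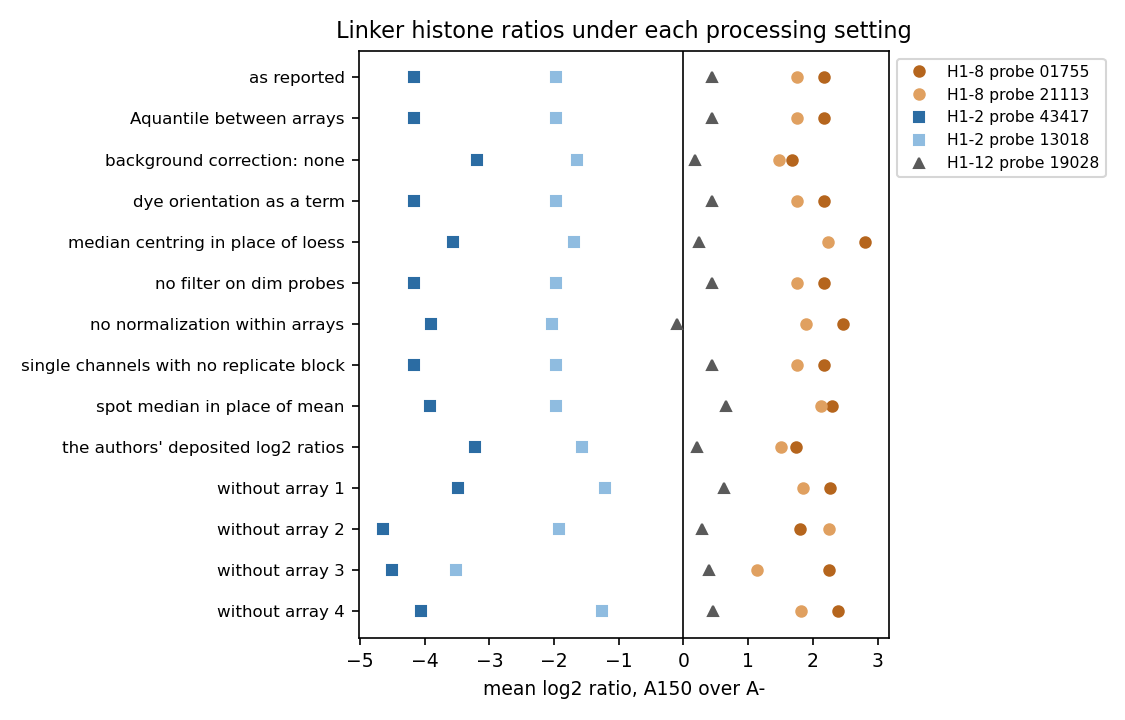
Mean log2 ratio of A150 over A- (horizontal axis) of 5 linker histone probes under each processing setting (rows). The H1-8 circles stay to the right of 0 and the H1-2 squares to its left in every row, and the triangle of the HIST1H1E probe falls to -0.093 without normalization within arrays.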

How the data were processed

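Per the labels' protocols, RNA depleted of ribosomal RNA was parted on poly(A)-binding beads, amplified with a WT-Ovation One-Direct kit and dyed through the Universal Linkage System. The deposited array files hold spot intensity and local background in the Cy3 and Cy5 scans, not subtracted, per the file headers. No scanner or image software is named in those sources. A deposited table for all arrays holds the authors' log2 ratios, which correlated at 0.998 to 0.999 with loess-normalized A150 over A- without background correction. Their medians ran from -0.011 to 0.020, and the reason for slopes of 0.84 to 1.22 is unknown.

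Rows without a probe name (22 per file) and spots marked as ignored (6 to 82 per array, none of a linker histone) were left out. Spot means were background corrected (normexp, offset 50) and loess-normalized within arrays with control spots at weight 0, in limma 3.58.1 under R 4.3.3. Signs of arrays 3 and 4 were turned. Background came from 153 negative-control spots. Ratios were tested against 0 on all kept probes with lmFit and eBayes (residual degrees of freedom 3, threshold 0.05 after Benjamini-Hochberg adjustment), and again with 1 probe per gene. The fit was tested on simulated data. Each array holds A150 and A- of 1 pool, so pairing is part of the ratio. Per the series design text the 4 pools were separate, so p-values measure the spread between pools and arrays, and 4 arrays limit the precision of every value.

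Symbols came from the platform annotation: of 43794 probes 21790 had 1 symbol and 22004 none, and 1524 were updated by RefSeq synonym. Probe sequences were not used here, so cross-hybridisation between H1 genes was not tested. The members and gene lists were chosen with earlier results of these data known. Named genes were all member probes, the 5 nearest genes to H1-8, and up to 2 genes with the smallest p on each side of a list. GDF9, ZP3, NOBOX, FSHR, LHCGR, AMH and the core histones were chosen after their values were seen.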

Additional observations from a re-analysis of the deposited data

Results flagged for a closer look

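Within the 4 arrays, H1-8 probe EMBV3_21367 had 1 value far from the other 3: its ratio on array 2 was 0.087, against 0.65 to 0.74 on the others. The gap was 0.864 of the range, above Dixon's critical value for 4 values. Neither fraction was above background at this probe on array 2, where the intensities were 1778 in A150 and 2740 in A-. Chance flags about 5% of such groups, and 7 probes were examined.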

How the results depend on the processing

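All linker histone ratios kept their sign under the 13 settings that gave them a value, except HIST1H1E, at -0.093 without normalization within arrays, where the median of all kept probes was -0.42 (-0.02 as reported). The dimmest H1-8 probe, EMBV3_21367, was 0.056 there (limma adjusted p = 0.954) and 0.27 without background correction. The brightest H1-8 probe passed only there, at 2.46 (limma adjusted p = 0.0300, 0.0300 to 0.327 over all settings), and ran from 1.80 to 2.38 with 1 array left out. H1-2 probe EMBV3_43417 passed there (-3.90, adjusted p = 0.00874) and on single channels with no replicate block (-4.17, adjusted p = 0.0234), with 0.00874 to 0.273 over all settings. Single channels with no replicate block leave the pairing of the 2 fractions on an array unused. The H1-8 minus H1-2 difference ran from 3.48 to 5.21, over settings chosen after seeing the data. Quantile normalization of average signal, the dye term, the fit without a filter and the single channels leave the mean ratios unchanged by construction. An unchanged sign under those settings is therefore no evidence of stability. The filter for both fractions on all arrays leaves no linker histone probe.

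Probes called toward A150 and A- numbered 0 and 12 as reported. They were 301 and 355 without normalization within arrays, 115 and 128 among probes above background in both fractions, 77 and 124 on single channels with no replicate block, and 2 and 29 with spot medians. Toward A- the count was 0 without background correction, with median centring, without a filter, with a dye term, in the authors' deposited log2 ratios, and with any 1 array left out (0 to 0). Genes called were 0 and 0 as reported, 89 and 49 without normalization within arrays, and 15 and 12 on single channels. Toward A- 1 gene of 956 was called when both fractions had to be above background, and 1 of 7795 in the authors' deposited ratios. The causes were not tested. No further paired analysis was possible because each array already pairs its 2 fractions.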
